A study of Lotus japonicus with 24 samples.

Results

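This account concerns 3 genes of alternative respiration in *Lotus japonicus*, out of the 30243 gene rows of the RNAseq table. They are LotjaGi2g1v0344500, described as ubiquinol oxidase 1 (AOX1, by likeness to the soybean protein), LotjaGi4g1v0050800, described as internal alternative NAD(P)H-ubiquinone oxidoreductase A1 (NDA1), and LotjaGi6g1v0339200, described as external alternative NAD(P)H-ubiquinone oxidoreductase B2 (NDB2), the last 2 by likeness to *Arabidopsis* proteins. The genes were chosen by their function and by their differences in FPKM between *Ljasn1-2* and WT plants, so these differences are given as a description with no test. The difference between shoots and roots under non-symbiotic conditions follows from the same choice and is described likewise. The other growth condition and tissue differences within each genotype were tested, but on libraries that also served the choice, so these p-values are not independent evidence of the pattern. Statements of no overlap between groups only describe the libraries, since the share of all genes without overlap was not counted. In 8 groups of 3 libraries, all 3 genes stood highest in *Ljasn1-2* shoots under non-symbiotic conditions, and within WT they stood highest in roots under the same conditions.

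Plant mitochondria can pass electrons to oxygen by a route that bypasses the proton-pumping complexes of the respiratory chain. Alternative NAD(P)H dehydrogenases hand electrons to ubiquinone without pumping protons: the internal NDA enzymes take NADH from the matrix, and the external NDB enzymes take NADH or NADPH from the intermembrane side. The alternative oxidase (AOX) then oxidises ubiquinol directly, in place of complexes III and IV, so that less ATP is made per electron. In *Arabidopsis* and soybean some genes of this route are stress-inducible and are often raised together, whereas other family members are expressed steadily.

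The study compared *Ljasn1-2*, a homozygous line with a LORE1 retrotransposon inserted in the asparagine synthetase gene *LjASN1*, with WT plants of ecotype Gifu. Plants under symbiotic (S) conditions were inoculated with *Mesorhizobium loti* and watered with nitrogen-free medium with 3 mM KCl, and non-symbiotic (NS) plants received 5 mM NH4NO3 and 3 mM KNO3. The groups were *Ljasn1-2* and WT shoots under S conditions, *Ljasn1-2* and WT shoots under NS conditions, and roots of the same 4 kinds, the S roots with their nodules, with 3 libraries each from pools of 10 plants. By the study's methods S plants were harvested 37 days and NS plants 26 days after planting, after 8 h of light, whereas the series description gives 40 days and 4 h for all. Growth condition and plant age therefore cannot be told apart if the methods hold, and the mutant is a single line. In libraries of whole organs, fewer cells of a type and less RNA per cell cannot be told apart.

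Reads on genes per library ranged from 37.5 M to 66.8 M (median 42.5 M). The level of *LjASN1* (LotjaGi1g1v0118200) was lower in *Ljasn1-2* than in WT in each of the 4 pairs of groups without overlap, with 24.6 to 39.2 FPKM in *Ljasn1-2* and 387 to 472 FPKM in WT NS shoots. In NS roots it was 52.7 to 118.9 FPKM in *Ljasn1-2* and 563 to 695 FPKM in WT, so reads on the row remained in the mutant. Summed over 5 rows, the Rubisco small subunit, a marker of green tissue, lay between 15570 and 23540 FPKM in the 12 shoot libraries and between 21.4 and 122 FPKM in the 12 root libraries. In NS shoots this sum was 15570 to 18470 FPKM in *Ljasn1-2* and 19250 to 23310 FPKM in WT, without overlap, and its part in the NS shoot differences was not tested. Casparian strip membrane proteins, which mark the root endodermis, summed to at most 0.189 FPKM in shoots and to at least 37.6 FPKM in roots. Leghemoglobin, the oxygen carrier of nodules, summed to between 6592 and 15020 FPKM over 4 rows in S roots and to at most 1.03 FPKM in NS roots.

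The AOX1 row lies on the plus strand of chromosome 2 at positions 82164838 to 82184610 of the assembly that the table names LjG1.1. It has a listed length of 18019 bases, against 1552 to 1682 bases for the other rows described as mitochondrial alternative oxidases, so its FPKM is low for the number of its reads, and reads are given beside its library values. A gene on the minus strand, LotjaGi2g1v0344600, described as an alpha-glucosidase, covers 94.1% of its span and had 0 to 27 reads per library. The strand setting of the counting is not given in the sources used here, so reads of this pair of genes cannot be told apart. The NDA1 row (chromosome 4, positions 6137326 to 6143230, plus strand, 2149 bases) and the NDB2 row (chromosome 6, positions 65329825 to 65335259, plus strand, 2732 bases) overlap no other gene of the table. The 3 genes are thus on 3 chromosomes.

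The alternative oxidase is the terminal enzyme of the route. In NS shoots AOX1 had 1.74, 1.37 and 2.38 FPKM in *Ljasn1-2* (1291, 954 and 2986 reads), against 0.186, 0.142 and 0.122 FPKM in WT (153, 100 and 88 reads). Every mutant library was above every WT library, and the mean of 1.83 ± 0.51 FPKM was 12.2-fold that of WT, 0.150 ± 0.033 FPKM (SD, n = 3 each). The direction was the opposite in NS roots, with 0.596, 0.467 and 0.721 FPKM in *Ljasn1-2* (730, 394 and 671 reads) and 1.38, 1.28 and 1.30 FPKM in WT (1382, 1055 and 1298 reads). Here all mutant libraries were below all WT libraries, and the WT mean was 2.22-fold the mutant mean.

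Under S conditions the genotypes overlapped for AOX1 in both organs. S shoots had 0.350, 0.287 and 0.301 FPKM in *Ljasn1-2* (207, 218 and 187 reads) and 0.351, 0.219 and 0.297 FPKM in WT (196, 174 and 201 reads). S roots had 0.456, 0.534 and 0.652 FPKM in *Ljasn1-2* (325, 423 and 548 reads) and 0.609, 0.765 and 0.760 FPKM in WT (471, 639 and 619 reads). Ordered by mean level, *Ljasn1-2* NS shoots came first and WT NS roots second, and these neighbours overlapped. The root groups other than WT NS roots followed, then S shoots, and WT NS shoots were last and apart from the group above them.

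NDA1 is the matrix-facing dehydrogenase. It had 2.93, 2.38 and 3.10 FPKM in *Ljasn1-2* NS shoots, against 0.265, 0.394 and 0.291 FPKM in WT NS shoots. The mutant libraries were all above the WT libraries, with means of 2.80 ± 0.37 and 0.317 ± 0.068 FPKM (SD, n = 3 each), an 8.85-fold difference. In NS roots NDA1 had 0.842, 0.537 and 0.622 FPKM in *Ljasn1-2* and 2.88, 2.73 and 1.67 FPKM in WT. The mutant libraries were all below the WT libraries, and the WT mean was 3.64-fold the mutant mean.

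In S shoots NDA1 had 0.511, 0.320 and 0.377 FPKM in *Ljasn1-2* and 0.240, 0.380 and 0.223 FPKM in WT. In S roots it had 0.576, 0.381 and 0.768 FPKM in *Ljasn1-2* and 0.705, 1.08 and 1.15 FPKM in WT. Both pairs overlapped. The order of the 8 groups by mean began as for AOX1, with *Ljasn1-2* NS shoots, WT NS roots and WT S roots, and from WT S roots downwards each group overlapped the next. NDA1 was the gene with the fewest reads, 16 to 464 per library, and its coefficient of variation between replicates was 13.3% to 33.7% over the groups, where counting error alone gives 6.0% to 21.7%.

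NDB2, the dehydrogenase on the outer face of the inner membrane, had the highest FPKM of the 3 genes in shoots. In NS shoots it had 9.48, 7.88 and 9.50 FPKM in *Ljasn1-2* and 1.40, 1.38 and 0.970 FPKM in WT. The groups did not overlap, and the mutant mean of 8.95 ± 0.93 FPKM was 7.15-fold the WT mean of 1.25 ± 0.24 FPKM (SD, n = 3 each). In NS roots it had 0.372, 0.634 and 0.638 FPKM in *Ljasn1-2* and 4.58, 4.77 and 4.13 FPKM in WT, so that all mutant libraries were lower and the WT mean was 8.20-fold the mutant mean.

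Unlike the other two, NDB2 also kept the genotypes apart under S conditions. In S shoots it had 1.32, 1.21 and 1.31 FPKM in *Ljasn1-2*, above the 0.897, 0.656 and 0.947 FPKM of WT. In S roots it had 0.509, 0.583 and 0.596 FPKM in *Ljasn1-2*, below the 1.41, 1.71 and 2.05 FPKM of WT. The S differences had the same directions as the NS differences and were smaller, with mean ratios of *Ljasn1-2* to WT of 1.54 in S shoots and 0.327 in S roots. Both root groups of *Ljasn1-2* overlapped each other at the low end of the order.

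**Figure D1:**
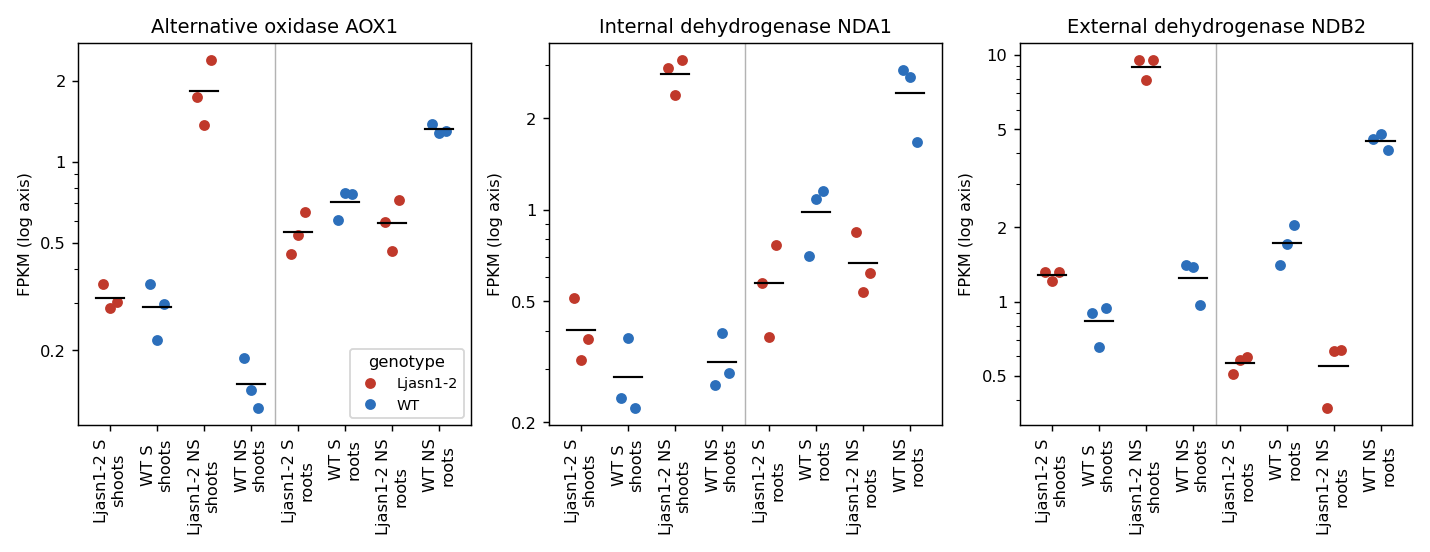
Level of AOX1, NDA1 and NDB2 in each of the 24 libraries, as FPKM on a log axis, with 3 points per group for the replicates and a black line at the group mean; red is *Ljasn1-2* and blue is WT. In NS shoots all *Ljasn1-2* points are above the WT points, and in NS roots all are below them.

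The genotype comparison asks how *Ljasn1-2* differs from WT in each organ and condition. Over all genes, limma on log2(FPKM + 1) called 0.433% of genes different between *Ljasn1-2* and WT in NS shoots, 0.106% in S shoots, 0.0433% in NS roots and 0.0308% in S roots (adjusted p under 0.05). Blocking on the replicate number gave 278, 723 and 262 calls in NS shoots, NS roots and S roots, against 70, 7 and 5 without the block. Nothing is read from these shares about AOX1, NDA1 and NDB2, which were selected on these contrasts. On the log2(FPKM + 1) scale the differences between *Ljasn1-2* and WT were 1.28 for AOX1, 1.53 for NDA1 and 2.15 for NDB2 in NS shoots, and -0.54, -1.02 and -1.83 in NS roots. This scale damps the change of genes near or below 1 FPKM.

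The comparison of growth conditions asks how the genes differ between nodulated and ammonium nitrate-fed plants of 1 genotype. In *Ljasn1-2* shoots all 3 genes fell under S relative to NS conditions. AOX1 averaged 0.313 ± 0.033 FPKM in S and 1.83 ± 0.51 FPKM in NS shoots of *Ljasn1-2* (SD, n = 3 each), with a log2(FPKM + 1) difference of -1.09 ± 0.15 (SE). NDA1 averaged 0.403 ± 0.098 FPKM in S and 2.80 ± 0.37 FPKM in NS shoots, a difference of -1.44 ± 0.13 on the same scale (SE). NDB2 averaged 1.28 ± 0.063 FPKM in S and 8.95 ± 0.93 FPKM in NS shoots, a difference of -2.12 ± 0.11 (SE, adjusted p = 7.29e-06, limma). In this comparison 11.9% of all genes tested were called. AOX1 and NDA1 reached the filter of 1 FPKM in 3 libraries only through the NS group, where they are high, so no p from that fit is given for them. limma voom on reads asks for 10 reads in 3 libraries, which each group of the 3 genes met by itself, and gave adjusted p values of 0.000234 for AOX1, 0.000546 for NDA1 and 2.04e-05 for NDB2.

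In WT shoots the 3 genes did not share a direction. AOX1 averaged 0.289 ± 0.066 FPKM in S and 0.150 ± 0.033 FPKM in NS shoots of WT (SD, n = 3 each), and the S libraries were all above the NS libraries. NDA1 averaged 0.281 ± 0.086 FPKM in S and 0.317 ± 0.068 FPKM in NS shoots, with overlap. NDB2 averaged 0.833 ± 0.156 FPKM in S and 1.25 ± 0.24 FPKM in NS shoots, all S libraries lying below all NS libraries. None of the 3 passed the filter on low values in WT shoots, where 6.18% of genes were called (23.1% with the replicate block). In limma voom the log2 differences were 0.86 for AOX1 (adjusted p = 0.109), -0.19 for NDA1 (adjusted p = 0.886) and -0.65 for NDB2 (adjusted p = 0.24), none past the threshold.

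In roots the pattern of the genotypes was the other way round. In *Ljasn1-2* roots S and NS libraries overlapped for all 3 genes, with S means of 0.547, 0.575 and 0.563 FPKM and NS means of 0.595, 0.667 and 0.548 FPKM for AOX1, NDA1 and NDB2. The genes were below the filter there, 27.8% of the genes tested being called (51.9% with the replicate block), and limma voom gave adjusted p values of 0.789, 0.663 and 0.819. WT roots had lower levels under S than under NS conditions for all 3, with no overlap. AOX1 averaged 0.711 ± 0.089 FPKM in S and 1.32 ± 0.05 FPKM in NS roots of WT, NDA1 0.980 ± 0.241 and 2.43 ± 0.66 FPKM, and NDB2 1.72 ± 0.32 and 4.49 ± 0.33 FPKM (SD, n = 3 each).

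The log2(FPKM + 1) differences in WT roots were -0.44 ± 0.11 for AOX1 (SE), -0.78 ± 0.18 for NDA1 (SE) and -1.02 ± 0.14 for NDB2 (SE, adjusted p = 0.00167, limma), where 24.1% of genes were called (48.1% with the replicate block). AOX1 and NDA1 passed the filter only through their NS libraries, NDA1 reaching 1 FPKM in 2 of the 3 S libraries. No p from this fit is therefore given for either gene. Without any 1 WT NS library AOX1 was below the filter. For both genes the side of the threshold in this fit changed on leaving out some single libraries. NDB2 kept its call without any 1 library (limma, largest adjusted p = 0.0119). In limma voom the adjusted p values were 0.00672 for AOX1, 0.0287 for NDA1 and 0.00252 for NDB2.

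The comparison of shoots with roots asks in which organ of 1 genotype the genes are higher. Under NS conditions the genes were chosen on the very groups it compares, so their differences are given with no test. In *Ljasn1-2* under NS conditions, shoots were above roots 3.08-fold for AOX1, 4.2-fold for NDA1 and 16.4-fold for NDB2 in mean FPKM, with no overlap. In WT under NS conditions the same genes were lower in shoots than in roots, the root mean being 8.79-fold, 7.66-fold and 3.59-fold the shoot mean, again with no overlap. Over all genes 52.7% were called between the organs in *Ljasn1-2* and 52.5% in WT under NS conditions, and nothing is read from this about the 3 genes.

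Under S conditions the organs were set apart less. NDB2 was higher in shoots than in roots of *Ljasn1-2*, 1.28 ± 0.063 and 0.563 ± 0.047 FPKM (SD, n = 3 each), with a log2 difference of 1.18 ± 0.26 in limma voom (SE, adjusted p = 0.00448). It was lower in shoots than in roots of WT, 0.833 ± 0.156 and 1.72 ± 0.32 FPKM (SD, n = 3 each), with a log2 difference of -1.06 ± 0.29 in limma voom (SE, adjusted p = 0.0123). In both genotypes NDB2 passed the filter of 1 FPKM only through the higher organ, so voom is given. AOX1 and NDA1 did not pass the filter under S conditions. AOX1 was lower in shoots than in roots in both genotypes without overlap, and limma voom gave log2 differences of -0.80 in *Ljasn1-2* (adjusted p = 0.0153) and -1.34 in WT (adjusted p = 0.000889). NDA1 overlapped between the organs in *Ljasn1-2* (voom, log2 difference -0.48, adjusted p = 0.379) and fell in WT shoots relative to roots (voom, log2 difference -1.77, adjusted p = 0.00654). Here 54.5% of genes were called in *Ljasn1-2* and 55.1% in WT. Rescaling the libraries to the same total of reads moved the median of all genes to between -0.35 and -0.27 in the tissue comparisons, against -0.06 to -0.03 as deposited, and turned no direction of the 3 genes.

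**Figure D2:**
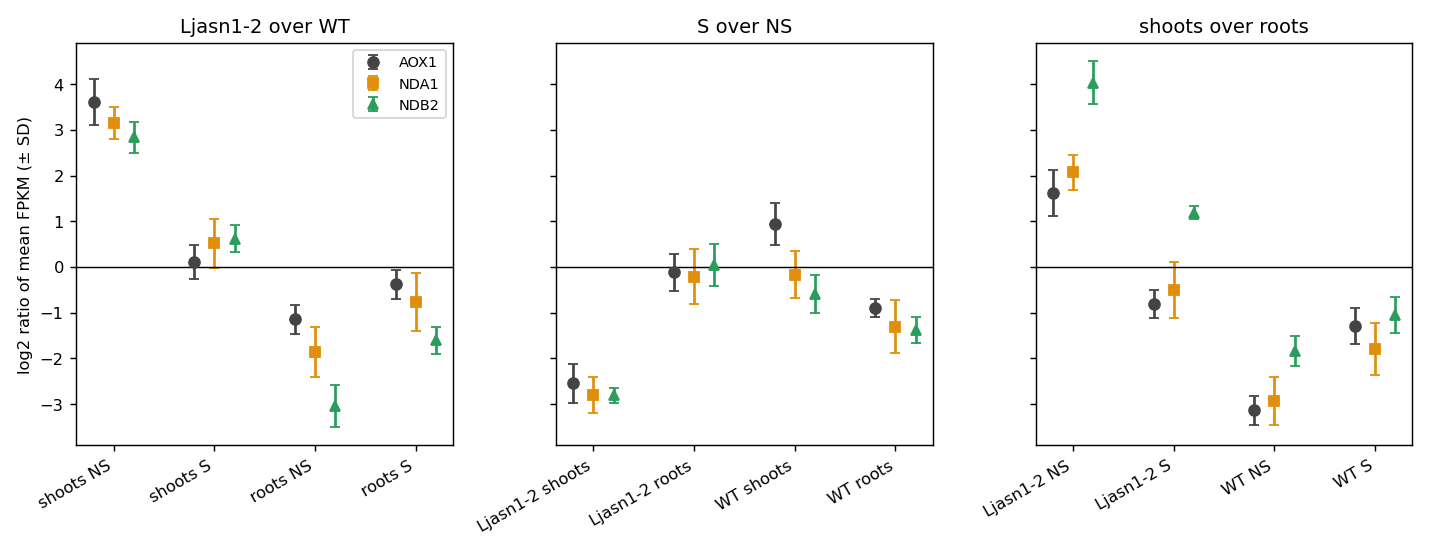
Log2 ratio of the group means of FPKM for AOX1 (grey circles), NDA1 (orange squares) and NDB2 (green triangles), for *Ljasn1-2* over WT, S over NS and shoots over roots; the bars are ± 1 SD, combined from the replicates of both groups on the log2 scale. The ratios of *Ljasn1-2* to WT are above 0 in NS shoots (2.84 to 3.61) and below 0 in NS roots (-3.04 to -1.15), and the ratios of shoots to roots under NS conditions are above 0 in *Ljasn1-2* and below 0 in WT.

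The proportions of the 3 genes varied between groups as well. Per length, the NDB2 level was 3.99 to 5.75 times the AOX1 level in the libraries of *Ljasn1-2* NS shoots and 7.54 to 9.70 times in those of WT NS shoots. In roots the same ratio was 0.623 to 1.36 in *Ljasn1-2* and 3.18 to 3.73 in WT under NS conditions. This ratio depends on the listed length of the AOX1 row. By reads, with no length, AOX1 had more than NDB2 in 21 of 24 libraries, all but the 3 of WT NS shoots, and the ratio of NDB2 to AOX1 reads was 0.605 to 0.872 in *Ljasn1-2* NS shoots and 1.14 to 1.47 in WT NS shoots. The ratio of NDA1 to AOX1 ranged less, from 0.684 to 2.77 over all groups.

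Over the 24 libraries the levels of AOX1 and NDA1 correlated with r = 0.91 on the log2 FPKM scale, NDA1 and NDB2 with r = 0.78, and AOX1 and NDB2 with r = 0.66. These values are descriptions, since the genes were chosen with their pattern known and replicates of a group share its level. With the group means taken out, the deviations of the libraries correlated with r = 0.52 for AOX1 and NDB2, 0.18 for AOX1 and NDA1, and -0.06 for NDA1 and NDB2. Within groups the genes thus varied together only in part.

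The other rows described as alternative oxidases or alternative NAD(P)H dehydrogenases number 10. Among the oxidases, LotjaGi4g1v0034900 (described as ubiquinol oxidase 2) had 6.47 to 147 FPKM and its neighbour on chromosome 4, LotjaGi4g1v0035000 (alternative oxidase 3), 17.6 to 63.4 FPKM. LotjaGi6g1v0288900, described as the plastid ubiquinol oxidase 4, which in *Arabidopsis* works in carotenoid synthesis and plastid electron transport, had 11.8 to 62.5 FPKM. LotjaGi1g1v0139200_LC (ubiquinol oxidase 2) stayed between 0.305 and 1.5 FPKM. AOX1 had a median of 0.565 FPKM, the lowest of these rows by its listed length, whereas by reads LotjaGi1g1v0139200_LC was lower, with 24 to 115 reads per library against 88 to 2986 for AOX1.

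Of the external dehydrogenases, LotjaGi4g1v0048700, which has the same description as NDB2, had 27.8 to 52.7 FPKM, LotjaGi3g1v0459400 (B3) 3.91 to 12.2 FPKM and LotjaGi6g1v0123400_LC (B1) 0.527 to 1.91 FPKM. Sequence likeness between the rows of 1 description was not examined, so reads could be split between copies. LotjaGi4g1v0412900 (C1, found in plastids and mitochondria of *Arabidopsis*) had 0.986 to 6.21 FPKM. A second row described as internal A1, LotjaGi6g1v0123200, had at least 1 FPKM in all 12 shoot libraries and no root library, and LotjaGi1g1v0119000 had at most 7 reads in any library.

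Between *Ljasn1-2* and WT limma tested 9 of these 10 rows in NS shoots, 9 in S shoots, 7 in NS roots and 8 in S roots, with 0 called in each. Over all genes the shares called were 0.433%, 0.106%, 0.0433% and 0.0308%, so that 0 calls among so few rows is no result about the family. In limma, at an unadjusted p under 0.05 the counts were 0, 1, 0 and 0. limma voom and the fit with the replicate block also called 0 in each, with the block beside 1.72%, 0.387%, 4.47% and 1.61% of all genes. The log2 differences of the 5 tested dehydrogenase rows in NS shoots ran from -0.16 to 0.09 and those of the 4 oxidase rows from -0.18 to 0.20. LotjaGi4g1v0048700, the row with the description of NDB2, averaged 46.1 FPKM in *Ljasn1-2* and 51.5 FPKM in WT NS shoots.

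**Figure D3:**
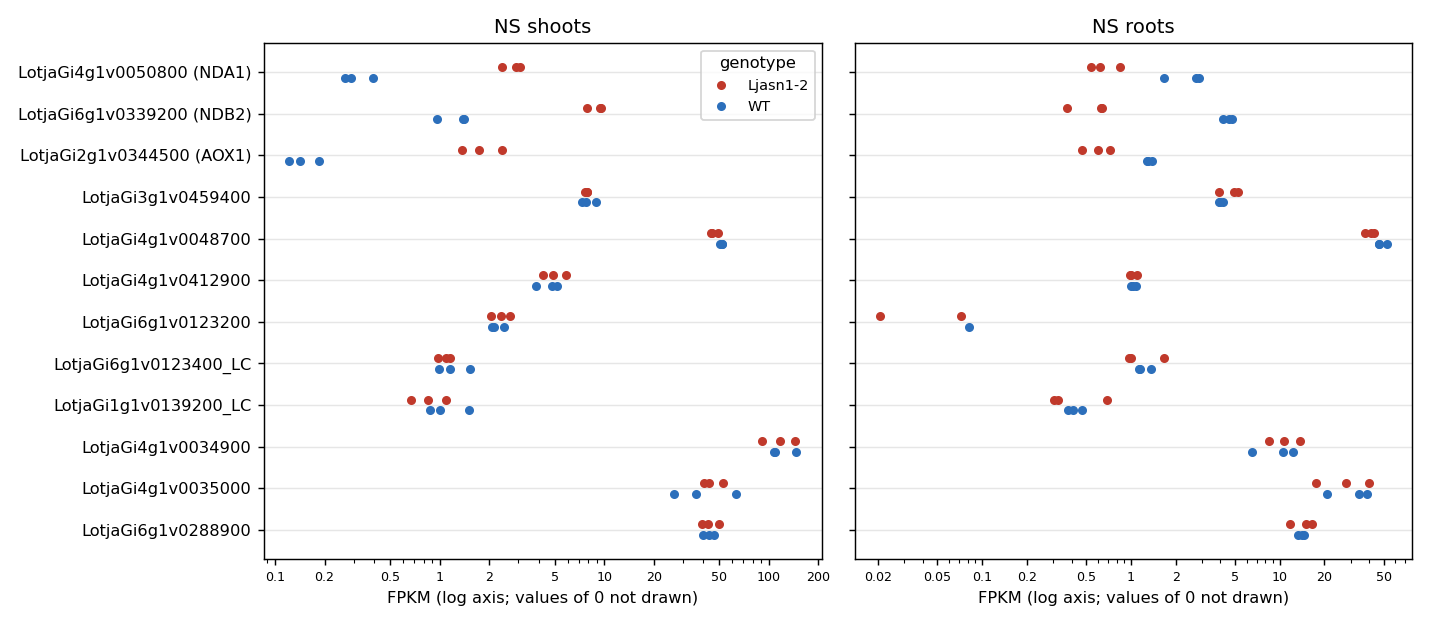
FPKM of AOX1, NDA1, NDB2 and the 9 other rows of the family that reached 1 FPKM in any library, on a log axis, under NS conditions in shoots (left) and roots (right); each point is a library, red for *Ljasn1-2* and blue for WT, and values of 0 are not drawn. The *Ljasn1-2* and WT points of the 3 genes at the top stand apart, whereas those of the rows below them overlap except for LotjaGi4g1v0048700, where the WT means are 1.12-fold the mutant mean in shoots and 1.19-fold in roots.

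Several of these rows did change with growth condition or organ. LotjaGi3g1v0459400 (B3) rose under S conditions in all 4 comparisons, with log2 differences of 0.48 in *Ljasn1-2* shoots (adjusted p = 0.0164), 0.69 in *Ljasn1-2* roots (adjusted p = 0.022), 0.51 in WT shoots (adjusted p = 0.0334) and 0.85 in WT roots (adjusted p = 0.00818, limma). Its calls in both shoot comparisons were lost on rescaling to the same total of reads, with adjusted p values of 0.0905 in *Ljasn1-2* and 0.122 in WT. They were also lost in limma without *Ljasn1-2* NS replicate 2 or S replicate 1 or 3 in *Ljasn1-2* shoots (adjusted p 0.0744 to 0.0894), and without WT NS replicate 2 or any WT S replicate in WT shoots (adjusted p 0.0538 to 0.162). In *Ljasn1-2* roots the call was lost without any 1 library other than S replicate 3 (adjusted p 0.0545 to 0.101), and in WT roots it was kept without each library. The plastid oxidase row LotjaGi6g1v0288900 rose in S roots by 1.33 in *Ljasn1-2* (adjusted p = 0.00184) and by 1.25 in WT (adjusted p = 0.000896, limma). LotjaGi4g1v0035000 fell in S shoots of *Ljasn1-2* by 0.83 (adjusted p = 0.00918, limma), a call that was lost with all 24 libraries in the fit (adjusted p = 0.167). In WT roots LotjaGi4g1v0048700 fell by 0.61 (adjusted p = 0.0232, limma), as NDB2 did, a call lost without any of 4 libraries (WT NS or S roots, replicate 1 or 2, adjusted p 0.0769 to 0.11). The block on the replicate number added a rise of LotjaGi6g1v0288900 in WT S shoots (log2 difference 0.35, adjusted p = 0.0091), a fall of LotjaGi4g1v0035000 in WT S shoots (-0.52, adjusted p = 0.0198) and a fall of LotjaGi4g1v0048700 in *Ljasn1-2* S roots (-0.42, adjusted p = 0.00943, limma). In WT S roots the block added a rise of LotjaGi4g1v0034900 (0.31, adjusted p = 0.0331, limma). In *Ljasn1-2* S shoots, where the numbers do not pair the libraries, it added a rise of LotjaGi6g1v0288900 (0.43, adjusted p = 0.0299, limma). LotjaGi6g1v0123400_LC had 0.651 to 1.065 FPKM in S and 1.13 to 1.36 FPKM in NS roots of WT. It passed the filter there only through its NS libraries, so its log2 difference of -0.31 is given with no p.

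Between organs, LotjaGi4g1v0034900 was higher in shoots than in roots in both genotypes and conditions, with log2 differences of 3.28 to 3.53. LotjaGi4g1v0412900 and LotjaGi6g1v0288900 were also called higher in shoots in all 4 comparisons (limma). LotjaGi4g1v0412900 was near the filter in *Ljasn1-2* NS roots, with 0.986 FPKM in replicate 1. LotjaGi6g1v0123200 had at most 0.0814 FPKM in any root library and at least 1.44 FPKM in every shoot library. It passed the filter only through its shoot libraries, so this difference is given with no call. The call of LotjaGi6g1v0288900 in WT under S conditions was lost on rescaling to the same total of reads (0.32, adjusted p = 0.098) and without WT S shoots replicate 2 (adjusted p = 0.0533) or replicate 3 (adjusted p = 0.0501, limma). LotjaGi4g1v0035000 was not called lower in shoots with all libraries as deposited, but it was in WT under S conditions on rescaling (-0.74, adjusted p = 0.02) or without WT S roots replicate 3 (-0.69, adjusted p = 0.0183), and in *Ljasn1-2* under S conditions without S roots replicate 3 (-0.53, adjusted p = 0.0145, limma).

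In NS shoots each gene held a larger share of its class in *Ljasn1-2* than in WT. NDA1 made up 47.2% to 60% of the summed FPKM of the 3 rows described as internal dehydrogenases in *Ljasn1-2* NS shoots, against 11% to 13.8% in WT NS shoots. In NS roots NDA1 made up 86.6% to 99.3% in *Ljasn1-2* and 96.6% to 99.8% in WT, so its share did not follow its level between organs. NDB2 made up 12% to 15.1% of the 4 external rows in *Ljasn1-2* NS shoots and 1.53% to 2.33% in WT NS shoots, and 0.755% to 1.45% in *Ljasn1-2* and 7.39% to 8.15% in WT NS roots. By reads, AOX1 held 8.73% to 16.3% of the 4 rows of mitochondrial alternative oxidases in *Ljasn1-2* NS shoots and 0.959% to 1.07% in WT NS shoots. In NS roots AOX1 held 11.1% to 23.7% of the reads of these 4 rows in *Ljasn1-2* and 22.1% to 34.7% in WT. The summed FPKM of these 4 rows was 165.2 ± 31.4 in *Ljasn1-2* and 164.5 ± 41.5 in WT NS shoots (SD, n = 3 each), since it rests almost wholly on the other rows.

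The rest of the mitochondrial respiratory chain was read from lists set by the descriptions: uncoupling proteins (8 rows), complex I (29), complex II (11), complex III (8), complex IV (12) and mitochondrial stress proteins (7 prohibitins and small heat shock proteins). Of these 75 rows 54 were tested in each genotype comparison, and 0 were called by limma. limma voom, which tested 59 to 62 of them, also called 0. With 0.433% of all genes called in NS shoots and 0.106% or less in the other groups, this is no result about the chain. At an unadjusted p under 0.05 limma counted 4 rows in NS shoots, 3 in S shoots, 2 in NS roots and 0 in S roots. In NS shoots the median log2 difference was -0.08 for the 23 tested rows of complex I, -0.02 for the 6 of complex III and 0.01 for the 8 of complex IV, beside -0.01 for all genes. The 7 mitochondrial stress rows had a median of 0.25 in NS shoots and -0.36 in NS roots, beside -0.01 and 0.01 for all genes.

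Between growth conditions limma called 1 of these rows higher and 1 lower under S conditions in *Ljasn1-2* shoots, 4 and 1 in *Ljasn1-2* roots, 2 and 1 in WT shoots, and 1 and 2 in WT roots, of 54 or 55 tested, beside 11.9%, 27.8%, 6.18% and 24.1% of all genes called in either direction. With the replicate block the counts in roots were 29 higher and 2 lower in *Ljasn1-2* and 15 higher and 3 lower in WT, beside 51.9% and 48.1% of all genes. The median of complex IV was 0.44 in *Ljasn1-2* roots and 0.29 in WT roots, beside 0.01 for all genes in both. Between organs 1 to 6 rows were called higher and 4 to 10 lower in shoots, beside 52.5% to 55.1% of all genes. The fall of AOX1, NDA1 and NDB2 in S roots of WT thus stood beside medians above 0 for complexes I to IV (0.07 to 0.29). Rescaling to the same total of reads moved the median of all genes in the growth condition comparisons to between -0.12 and -0.07, so list medians are to be read against it.

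With the replicate block 3 calls between genotypes appeared among these rows, in 2 genes that are named here after their values were seen. The block called 1.72% of all genes in NS shoots and 4.47% in NS roots, so these few calls are no result about the rows. LotjaGi3g1v0448200, described as prohibitin-1, a scaffold protein of the inner membrane, was higher in *Ljasn1-2* than in WT in NS shoots (log2 difference 0.53, adjusted p = 0.0161) and lower in NS roots (log2 difference -0.71, adjusted p = 0.0206, limma with the block). LotjaGi1g1v0348200, described as mitochondrial uncoupling protein 5, a carrier of the inner membrane, was lower in *Ljasn1-2* NS shoots (log2 difference -0.85, adjusted p = 0.0148, limma with the block).

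Genes most like each of the 3 were sought among the 18747 genes with at least 1 FPKM in 3 libraries, by Pearson's r on log2(FPKM + 1) over the 24 libraries. The gene most like AOX1 was NDA1 (r = 0.951), and the gene most like NDA1 was AOX1. AOX1 was followed by rows described as ZINC INDUCED FACILITATOR-LIKE 1, a membrane transporter (LotjaGi3g1v0309500, r = 0.857), flotillin-like protein 4, a membrane scaffold that in *Medicago* takes part in rhizobial infection (LotjaGi1g1v0381100, r = 0.851), the histone demethylase JMJ25 (LotjaGi3g1v0458000, r = 0.842) and NDB2 (r = 0.837). NDA1 was followed by NDB2 (r = 0.886), LotjaGi4g1v0465300, described as the zinc finger protein NFXL1, which in *Arabidopsis* acts in stress responses (r = 0.847), a hydroquinone glucosyltransferase (LotjaGi1g1v0599100, r = 0.843) and the protein-unfolding ATPase CDC48 (LotjaGi3g1v0487400, r = 0.82). So 2 of the 3 genes appeared among the top 5 of AOX1 and of NDA1.

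NDB2 was most like the NFXL1 row (r = 0.947), then a cytochrome P450 82A1 (LotjaGi2g1v0251800, r = 0.887), the CDC48 row (r = 0.887), NDA1 (r = 0.886) and LotjaGi1g1v0149600_LC (r = 0.87), a row with no description. LotjaGi4g1v0465300 averaged 59.8 ± 10.2 FPKM in *Ljasn1-2* and 7.93 ± 1.73 FPKM in WT NS shoots, and 4.4 ± 1.83 FPKM in *Ljasn1-2* and 21.2 ± 1.9 FPKM in WT NS roots (SD, n = 3 each). Under NS conditions this row had the same order of genotypes in both organs as the 3 genes, which follows from its choice by likeness. In S shoots it averaged 7.74 FPKM in *Ljasn1-2* and 8.18 FPKM in WT, not the order of NDB2. In all, 8 genes stood among the 20 most like each of AOX1, NDA1 and NDB2, namely the rows of NFXL1, CDC48, flotillin-like protein 4 and cytochrome P450 82A1, LotjaGi4g1v0066500 (an F-box protein), LotjaGi4g1v0062200 (NAC domain-containing protein 73), LotjaGi4g1v0030300 (a WAT1-related transporter) and LotjaGi5g1v0075600 (TIM14-1, part of the protein import motor of mitochondria). LotjaGi5g1v0075600 averaged 9.80 ± 4.30 FPKM in *Ljasn1-2* and 0.248 ± 0.060 FPKM in WT NS shoots (SD, n = 3 each).

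These lists lean on the groups with the highest levels. By Spearman's rho over the same libraries 3 of the top 5 of AOX1, 2 of NDA1 and 4 of NDB2 stayed in the top 5, and NDB2 moved to place 582 among the genes most like AOX1 (rho = 0.55), while NDA1 stayed in place 1 (rho = 0.917). The plot of NDB2 against the NFXL1 row shows the 3 libraries of *Ljasn1-2* NS shoots at one end, WT NS roots and then WT S roots next to them, and the other shoot groups and the *Ljasn1-2* roots at the low end.

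**Figure D4:**
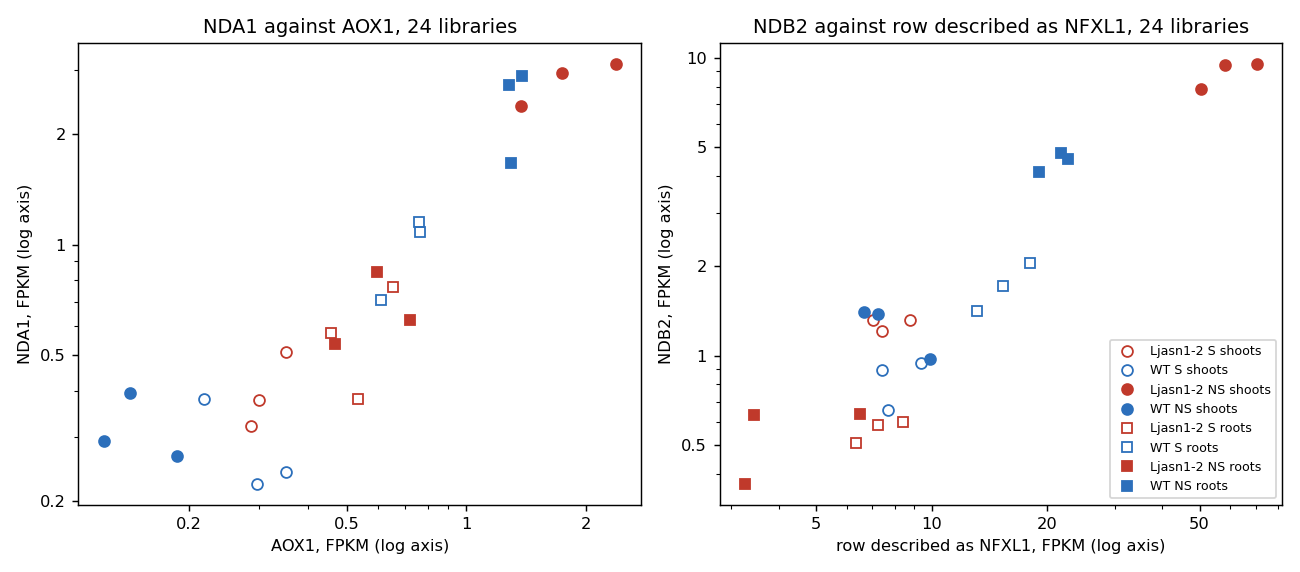
FPKM on log axes in the 24 libraries of NDA1 against AOX1 (left) and of NDB2 against the row described as NFXL1 (right); red is *Ljasn1-2*, blue is WT, circles are shoots, squares are roots, open symbols are S and filled symbols NS. In both panels the libraries of *Ljasn1-2* NS shoots and WT NS roots hold the high end, with r = 0.951 on the left and 0.947 on the right on the log2(FPKM + 1) scale.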

How the data were processed

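RNAseq was done by the study on 24 libraries. The submitters' processing notes name fastp, featureCounts 1.5.0-p3 and DESeq2 1.20.0; the aligner is not given in the sources used here. The deposited table (unit recorded as other) holds FPKM made by the authors, in which values of 1 or more had lost the decimal point. Of 725832 values 384363 (53.0%) were restored here as whole reads per gene, with the replicates and the order of the table choosing the power of 10; 90 genes stayed with more than 1 placement, none of them in the alternative respiration family, and on simulated data 11 values in 7 genes were restored wrongly, all in genes so marked. The fits were designed for FPKM and kept.

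Each of 12 comparisons was fitted to its 6 libraries with limma 3.58.1 (R 4.3.3) on log2(FPKM + 1), with an intensity trend, on the genes that reached 1 FPKM in 3 or more of them, two-sided, with Benjamini-Hochberg adjustment over all genes tested. Tested on simulated data for the WT root comparison of growth conditions (16502 genes), the fit called 95.9% of the genes given a 2-fold change, and 3.5% of its calls were false; for the NS shoot comparison of genotypes (16114 genes) these were 98% and 10.8%. The simulated reads had the same spread beyond counting error for all genes. They held no deviation shared by same-numbered libraries, unlike the real ones, so these shares do not give the power of the real comparisons. limma voom used restored reads with TMM scaling. Tables and plots were made with Python 3.11.15, pandas 2.3.3 and matplotlib 3.10.9.

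Same-numbered libraries deviated together (every pair over r = 0.1) in 3 genotype comparisons (not S shoots) and 3 growth condition comparisons (not *Ljasn1-2* shoots), and in none between organs. Beyond the 3 genes, the text names the other family rows, the 5 genes most like each gene with those in the top 20 of all 3, and *LjASN1*; partner rows were to be named if called between genotypes. The genes and lists were chosen with earlier results of these data known.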

Additional observations from a re-analysis of the deposited data

Results flagged for a closer look

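For 3 genes the difference between *Ljasn1-2* and WT ran in opposite directions in shoots and roots under NS conditions, with every library of a genotype on one side. The log2 ratios of mean FPKM were 3.61 in shoots and -1.15 in roots for AOX1 (4.76 apart), 3.15 and -1.86 for NDA1 (5.01 apart), and 2.84 and -3.04 for NDB2 (5.88 apart). NDB2 also did so under S conditions, with 0.62 in shoots and -1.61 in roots (2.23 apart). These differences were not tested, since the genes were chosen on them.

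AOX1 was lower under S than NS conditions in *Ljasn1-2* shoots (log2 ratio -2.55) and higher in WT shoots (0.94), a difference of -3.49. Within WT it was higher under S conditions in shoots (0.94) and lower in roots (-0.89), 1.83 apart. Within *Ljasn1-2* it was higher in shoots than roots under NS conditions (1.62) and lower under S conditions (-0.81), 2.43 apart. These differences were not tested either.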

How the results depend on the processing

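No growth condition or tissue difference that was called in the original fit turned direction under any alternative. Other differences were not checked for this. For AOX1, NDA1 and NDB2 the growth condition and tissue comparisons and the lists of most like genes were counted together. Among their alternative values 152 stayed the same, including the list of NDB2. This means the same side of the threshold or, with no test in the original fit, a value within 1 SD. In 6 the adjusted p rose above the threshold, all for AOX1 or NDA1 on leaving out 1 library of WT roots, in the fit not read for them. A further 8 passed the threshold with no test in the original fit, and 6 moved, among them the lists of AOX1 and NDA1. The tissue comparisons counted here include those under NS conditions, on whose groups the genes were chosen. The count also takes in fits that a gene entered only through its high group. A call kept there can follow from the choice or the filter, so the 152 do not measure how firm the results are. Without 1 library the WT root values ranged from -0.46 to -0.40 for AOX1 and from -0.95 to -0.68 for NDA1. Where a gene was below the filter of 1 FPKM, limma voom gave 0.86, -0.19 and -0.65 for AOX1, NDA1 and NDB2 in WT shoots (S over NS). For shoots over roots under S conditions, voom gave -0.80 for AOX1 and -0.48 for NDA1 in *Ljasn1-2*, and -1.34 and -1.77 in WT; no filter gave -0.24 for AOX1 in *Ljasn1-2*; and both no filter and all 24 libraries in 1 fit gave -0.41 for AOX1 and -0.62 for NDA1 in WT.

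The size of the genotype differences depended on the scale, since a pseudocount of 1 damps low values. With a pseudocount of 0.1 FPKM they were 2.92, 2.81 and 2.76 in NS shoots and -1.05, -1.70 and -2.85 in NS roots for AOX1, NDA1 and NDB2, and 0.58 in S shoots and -1.45 in S roots for NDB2. With voom they were 3.60, 3.19 and 2.87 in NS shoots, 0.16, 0.48 and 0.66 in S shoots, -1.18, -1.82 and -3.12 in NS roots, and -0.38, -0.78 and -1.58 in S roots. By Spearman's rho 3, 2 and 4 of the 5 most like genes were shared.

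Counts of genes called moved more, and the cause was not tested. All 24 libraries in 1 fit gave 149 calls between genotypes in NS shoots, 113 in NS roots and 96 in S roots, and 7253 between growth conditions in *Ljasn1-2* roots, against 70, 7, 5 and 4603. No filter gave 7 in S shoots (against 17), 2 in S roots and 618 between growth conditions in WT shoots (against 996). voom gave 15 in NS roots and 0 in S roots (603 at an unadjusted p under 0.05). Without 1 library the counts between genotypes ranged from 15 to 67 in NS shoots (15 without *Ljasn1-2* replicate 3), from 7 to 14 in S shoots, from 0 to 9 in NS roots and from 0 to 3 in S roots. Between growth conditions they ranged from 930 to 2887 in *Ljasn1-2* shoots, from 2279 to 5264 in *Ljasn1-2* roots, from 317 to 1391 in WT shoots and from 2111 to 4531 in WT roots. Rescaling to the same total of reads put 27.4% to 38.8% of growth condition calls and 30.8% to 35.5% of tissue calls on the higher side, against 45.6% to 55.5% and 50% to 50.3%.

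With the replicate block 278 genes were called between genotypes in NS shoots, 62 in S shoots, 723 in NS roots and 262 in S roots, and between growth conditions 8581 in *Ljasn1-2* roots, 3722 in WT shoots and 7959 in WT roots. The pairing by number had no support in S shoots between genotypes (lowest r = -0.02), in *Ljasn1-2* shoots between conditions (-0.03) or between organs. In the growth condition and tissue fits the block changed no call of AOX1, NDA1 or NDB2. Between genotypes these genes were given no call, so the block could change none there.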
